A study of Homo sapiens with 4 samples.

Results

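The subunits of the vacuolar ATPase (V-ATPase), the proton pump of acidic organelles, were examined by RNA-seq in K562-U2AF1_S34F cells. The members were 10 genes, ATP6V1A, ATP6V1B2, ATP6V1C1, ATP6V1D, ATP6V1E1, ATP6V1F, ATP6V1G1, ATP6V1H, ATP6V0C and ATP6V0D1, out of 62778 entries of the table that name a gene. For each symbol, the entry with the highest mean count over the 4 libraries was taken. The set was selected because the ATP6V1C1 values were lower with SF1-8 in these same libraries, so the differences between the groups are given for the members as a description, with no p-value for any of them. Counts of members past a threshold are printed beside the share of all genes and carry no weight as evidence. All 10 had an entry and passed the filter on low counts, as did 26167 entries in all.

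K562 is an established human erythroleukemia line. All 4 libraries came from K562 cells that overexpress U2AF1 carrying the S34F change, a splicing factor that reads the 3' end of introns, so an effect of the overexpressed mutant itself cannot be seen here. The 2 control libraries (DMSO 1 and DMSO 2) came from cells given the solvent DMSO, and the 2 treated libraries (SF1-8 1 and SF1-8 2) from cells given 30 uM SF1-8, a hit of a compound screen directed at the U2AF homology motif of U2AF1. Both groups were treated for 48 h. The labels do not say that the 2 libraries of a group came from separate cultures. The spread between samples that enters any p-value may therefore be technical.

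The V-ATPase couples ATP hydrolysis to the transport of protons into endosomes, lysosomes, the Golgi and secretory granules. Its peripheral V1 domain hydrolyses ATP and turns a central rotor, and its V0 domain in the membrane carries protons across on a rotating ring. The 2 domains separate and rejoin as a means of control, and subunit C of V1 is the one released when they part. In erythroid cells the acid made by the pump frees iron from endocytosed transferrin, and on lysosomes the pump takes part in amino acid sensing by mTORC1.

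Total counts ranged from 45522905 in DMSO 1 to 67554610 in SF1-8 1. Levels are given as FPKM, which the authors scaled by length and depth, and fold changes are log2 values from the counts, with the standard error (SE) of the fit. Among the K562 markers, GATA1, the erythroid master regulator, lay between 75.9 and 79.1 FPKM and TFRC, the transferrin receptor, between 95.7 and 116 FPKM. None of the 7 entries that hold the 9 K562 markers was at 0. The FPKM summed over 7 fibroblast markers was 9.93 and 4.72 in DMSO 1 and DMSO 2, and 2.46 and 0.594 in SF1-8 1 and SF1-8 2. COL1A1 made up 5.39, 2.60, 1.21 and 0.098 FPKM of these sums, and LUM was at 0 in both SF1-8 libraries. The sum over 7 markers of other blood cells ran from 6.96 to 8.84 FPKM, most of it from PTPRC and SPI1. Among the rarer of these markers, CD3E of T cells stood at 0.270 and 0.116 FPKM with DMSO and at 0.0338 and 0 FPKM with SF1-8, and CD14 of monocytes at 0 and 0.0282 FPKM with DMSO and at 0.0816 and 0.0836 FPKM with SF1-8. MPO was at 0 in all 4 libraries. In bulk RNA such as this, fewer cells of a type and less RNA per cell cannot be told apart.

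ATP6V1C1 encodes subunit C of V1, the clamp between the stalks of V1 and the membrane domain. Its 2 DMSO libraries stood at 15.9 and 14.0 FPKM, and its 2 SF1-8 libraries at 6.80 and 6.98 FPKM. Both SF1-8 libraries lay below both DMSO libraries, and the libraries of a group stood close together. The group means were 15.0 ± 1.36 FPKM with DMSO and 6.89 ± 0.13 FPKM with SF1-8 (SD, n = 2), a ratio of 2.17 of DMSO over SF1-8. The fitted log2 fold change was -1.09 (SE 0.083). The counts behind it were 5393 and 6635 with DMSO, and 3329 and 3302 with SF1-8.

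The entry of ATP6V1C1 spans chromosome 8 from 103021063 to 103073051 on the plus strand (GRCh38), the same bounds that GENCODE version 29 gives the gene. The gene has 6 annotated transcripts there, 4 of them coding and 2 with a retained intron. The longest coding one has 13 exons and 12 introns and encodes 382 residues. The deposited value is for the whole entry, and how it divides over these transcripts was not analysed here. CD3E was lower with SF1-8 as well, and so was the fibroblast marker sum. That sum was 9.93 and 4.72 FPKM in DMSO 1 and DMSO 2, and 2.46 and 0.594 FPKM in SF1-8 1 and SF1-8 2. In the same order, ATP6V1C1 stood at 15.9, 14.0, 6.80 and 6.98 FPKM. Whether cells other than K562 were present, and what part they would have in the ATP6V1C1 value, was not tested.

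**Figure D1:**
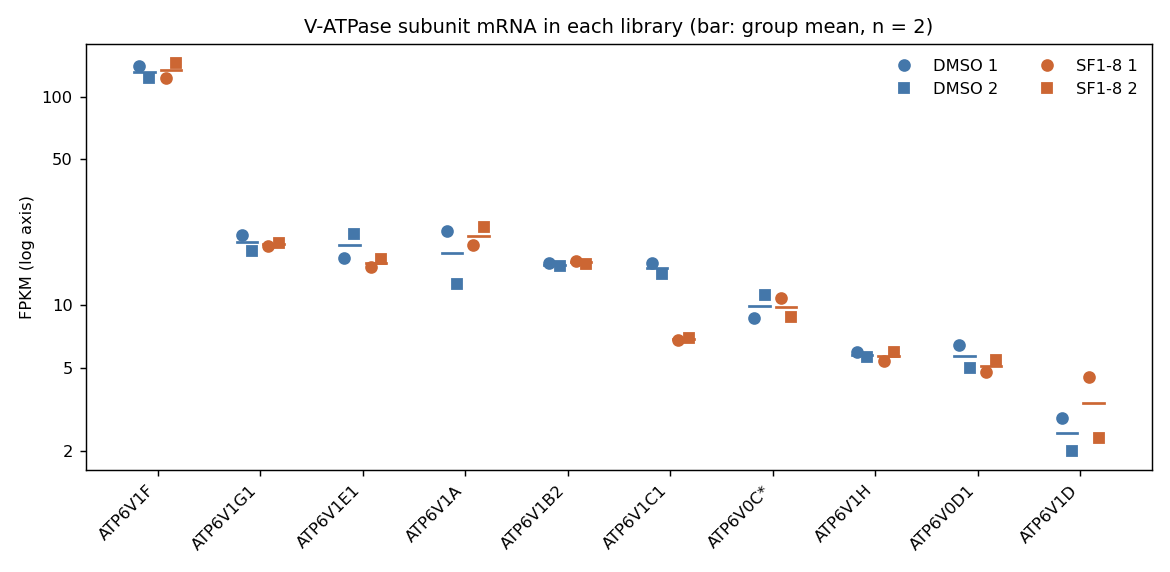
FPKM of the 10 V-ATPase members (log axis), ordered by their DMSO mean, with 1 point per library (blue DMSO, orange SF1-8) and a short bar at each group mean (n = 2). ATP6V1C1 stood at 15.9 and 14.0 with DMSO and at 6.80 and 6.98 with SF1-8, and 8 of the other 9 members overlapped between the groups. The asterisk marks ATP6V0C, whose entry also holds other genes.

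Of the 10 members, 2 had both SF1-8 values below both DMSO values, ATP6V1C1 and ATP6V1E1, against 20.0% of all genes tested. None had both SF1-8 values above both DMSO values, against 14.2% of all genes tested. The fitted level was at least 2-fold lower for 1 member, ATP6V1C1, against 7.71% of all genes tested. In edgeR's quasi-likelihood test, 0 of the 10 members had an adjusted p under 0.05, against 0.0420% of all genes tested. At an unadjusted p under 0.05 it was 1 of 10, against 4.33%. DESeq2 called 1 member, ATP6V1C1, against 0.652% of the genes it tested, and limma on FPKM called 0. As ATP6V1C1 was selected on this contrast, nothing is read from these counts or calls. The median log2 fold change was 0.0028 over the 10 members and -0.011 over all genes tested.

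ATP6V1A and ATP6V1B2 form the ring of V1 that hydrolyses ATP, A with the catalytic sites and B beside it. ATP6V1A stood at 22.8 and 12.7 FPKM with DMSO and at 19.3 and 23.6 FPKM with SF1-8. Its DMSO 2 value was the lowest of the 4, and the other libraries lay close to each other. The log2 fold change of 0.32 (SE 0.262) became -0.012 without DMSO 2 and 0.75 without DMSO 1. ATP6V1B2 varied least of the members over the 4 libraries, at 15.8 and 15.3 FPKM with DMSO and 16.3 and 15.7 FPKM with SF1-8. Its log2 fold change was 0.065 (SE 0.0705), and its groups overlapped.

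ATP6V1D and ATP6V1F form the central rotor. ATP6V1D was the lowest member, at 2.88 and 2.00 FPKM with DMSO and 4.50 and 2.29 FPKM with SF1-8. SF1-8 1 stood above the rest, and the groups overlapped. The log2 fold change of 0.51 (SE 0.355) was -0.056 without SF1-8 1. ATP6V1F was the highest member, at 140 and 123 FPKM with DMSO and 123 and 145 FPKM with SF1-8. Its log2 fold change was 0.054 (SE 0.102), within the spread of its own SF1-8 libraries.

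ATP6V1E1 and ATP6V1G1 pair up in the outer stalks that hold the ring in place. ATP6V1E1 stood at 16.8 and 22.0 FPKM with DMSO and at 15.3 and 16.6 FPKM with SF1-8. The groups did not overlap, but the lower DMSO library and the higher SF1-8 library were nearly level, and the log2 fold change of -0.26 (SE 0.168) was 0.0001 without DMSO 2. ATP6V1G1 stood at 21.8 and 18.2 FPKM with DMSO and 19.3 and 19.9 FPKM with SF1-8, both SF1-8 values falling between the DMSO values. Its log2 fold change was 0.0015 (SE 0.103). ATP6V1H, the subunit that keeps free V1 from hydrolysing ATP, stood at 5.94 and 5.61 FPKM with DMSO and 5.39 and 5.97 FPKM with SF1-8, with a log2 fold change of 0.0042 (SE 0.1).

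Set against the other V1 members within a library, ATP6V1C1 was lower in both SF1-8 libraries than in either DMSO library. As ATP6V1C1 was selected for its fall in these libraries, the ratios restate that fall and are no further result. Its FPKM over the geometric mean of the 7 other V1 members was 0.974 in DMSO 1 and 1.00 in DMSO 2, and 0.423 in SF1-8 1 and 0.443 in SF1-8 2. Over ATP6V1B2 alone, the FPKM ratio was 1.01 and 0.914 with DMSO and 0.416 and 0.446 with SF1-8. With DMSO, subunit C mRNA was thus near the geometric mean of its V1 partners per length, and with SF1-8 below it in both libraries. That mean covers partners with widely different levels, from ATP6V1D to ATP6V1F. Over ATP6V1H, the FPKM ratio was 2.68 and 2.50 with DMSO and 1.26 and 1.17 with SF1-8. ATP6V1C1 thus stayed above ATP6V1H, and also above ATP6V1D, in every library. The 3 genes ATP6V1C1, ATP6V1B2 and ATP6V1H lie far apart on the same chromosome, and their copy number was not tested.

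**Figure D2:**
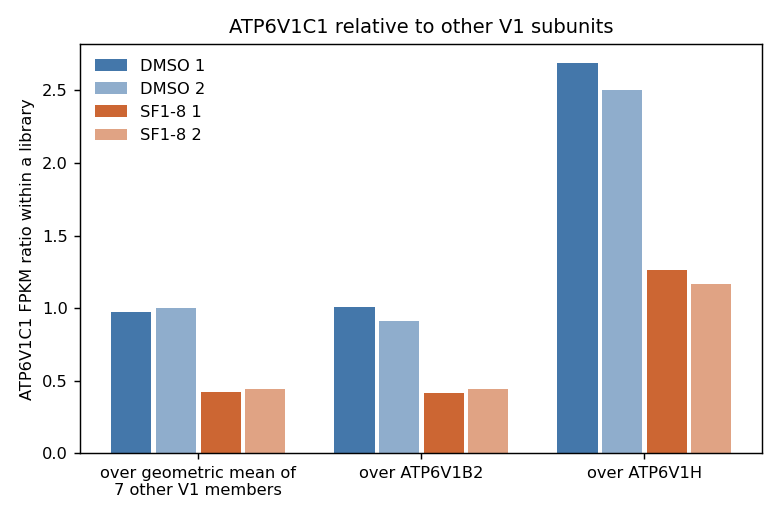
ATP6V1C1 FPKM divided, within each library, by the geometric mean of the 7 other V1 members, by ATP6V1B2 and by ATP6V1H (bars start at 0, 1 bar per library, blue DMSO, orange SF1-8). The first ratio was 0.974 and 1.00 with DMSO and 0.423 and 0.443 with SF1-8, and both SF1-8 bars are below both DMSO bars in each set. The members were selected because ATP6V1C1 fell, so the ratios restate that fall.

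In the V0 domain, ATP6V0D1 links the rotor of V1 to the proton-carrying ring. It stood at 6.46 and 4.98 FPKM with DMSO and 4.74 and 5.44 FPKM with SF1-8, with a log2 fold change of -0.14 (SE 0.135) and overlapping groups. ATP6V0C encodes the main subunit of the ring, but its entry runs over chromosome 16 from 2475051 to 2531422 (GRCh38) and also names TBC1D24, AC093525 and AMDHD2. The annotated ATP6V0C gene covers only 2513870 to 2520218 of it. The entry stood at 8.67 and 11.1 FPKM with DMSO and 10.8 and 8.75 FPKM with SF1-8, with a log2 fold change of 0.00026 (SE 0.179). A level of ATP6V0C alone cannot be read from it.

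Promoters from RefSeq (GRCh38.p14, 250 bases before to 50 after a gene's start) were searched on both strands for CACGTG, the E-box core, for TCACGTGA, the longer form found in the element that TFEB and its relatives bind at lysosomal genes and which contains the former, and for CCAAT and GGGCGG. The table held promoters for 6 members, ATP6V1D, ATP6V1E1, ATP6V1F, ATP6V1G1, ATP6V0C and ATP6V0D1. CACGTG and TCACGTGA were each found in 2 of these 6, ATP6V1G1 and ATP6V0D1. Of all 27305 symbols in the table, 8.77% and 1.18% had a promoter with these letters. Of the 12 other subunits with a promoter there, 2 held CACGTG (ATP6V0B and ATP6V0E2) and 0 held TCACGTGA. CCAAT was found in ATP6V1E1 and ATP6V0C (39.7% of all symbols), and GGGCGG in ATP6V1G1, ATP6V1E1 and ATP6V0C (48.3% of all symbols). A match is a description of the letters and not a bound site. The 250 bases before the start are printed for the 2 promoters with the E-box, from 5' to 3' on the strand of the gene, with TCACGTGA in capitals. It lay 59 to 52 bases before the start of ATP6V1G1 (chr9:114587519-114587768, plus strand) and 60 to 53 bases before that of ATP6V0D1 (chr16:67481158-67481407, minus strand). The level of neither gene differed between the groups beyond the spread of its libraries.
ATP6V1G1: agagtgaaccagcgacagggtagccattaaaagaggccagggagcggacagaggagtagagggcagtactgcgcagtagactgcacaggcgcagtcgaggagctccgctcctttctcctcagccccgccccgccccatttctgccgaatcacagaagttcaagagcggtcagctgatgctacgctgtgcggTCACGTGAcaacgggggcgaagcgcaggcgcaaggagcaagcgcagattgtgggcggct
ATP6V0D1: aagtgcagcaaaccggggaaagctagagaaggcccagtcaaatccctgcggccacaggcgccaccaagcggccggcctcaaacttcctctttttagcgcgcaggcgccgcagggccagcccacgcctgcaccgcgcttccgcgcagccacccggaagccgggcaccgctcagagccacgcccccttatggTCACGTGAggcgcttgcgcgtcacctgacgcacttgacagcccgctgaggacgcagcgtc

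By mean FPKM with DMSO, the members ran from ATP6V1F at 132 ± 12.3 to ATP6V1D at 2.44 ± 0.625 (SD, n = 2), a range of 54.0-fold. ATP6V1F stood 6.60-fold above the next member. ATP6V1G1 (20.0 ± 2.57), ATP6V1E1 (19.4 ± 3.67), ATP6V1A (17.7 ± 7.16), ATP6V1B2 (15.6 ± 0.342) and ATP6V1C1 (15.0 ± 1.36) followed, and each overlapped its neighbour in that order. The ATP6V0C entry, ATP6V1H (5.77 ± 0.235) and ATP6V0D1 (5.72 ± 1.04) came below, the last 2 overlapping. The median over the members was 15.3 FPKM with DMSO, against 1.22 FPKM over all genes tested.

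Several subunits have paralogs that can take their place in some tissues. Next to ATP6V1C1, the other subunit C gene ATP6V1C2 stood at 0.0539 and 0.0430 FPKM with DMSO and at 0.0503 and 0.0518 FPKM with SF1-8. Together, both C genes summed to 16.0 and 14.1 FPKM with DMSO and to 6.85 and 7.03 FPKM with SF1-8. The log2 fold change of ATP6V1C2 was 0.087 (95% interval -1.97 to 2.15, edgeR adjusted p = 0.995), so at this level neither a fall nor a rise of several-fold could be detected.

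The paralogs ATP6V1G3 and ATP6V0A4 were at 0 in every library, and ATP6V1B1 (in an entry shared with VAX2) and ATP6V0D2 were at 0 in 2 and 3 of the 4 libraries and at most 0.0118 and 0.0586 FPKM in the others. ATP6V1E2 was low, at 0.831 and 0.927 FPKM with DMSO and 0.641 and 0.669 FPKM with SF1-8. ATP6V1G2 shares its entry with the helicase gene DDX39B, so its own level cannot be read. The ubiquitous form was therefore the higher one for subunits B, C, E and d.

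**Figure D3:**
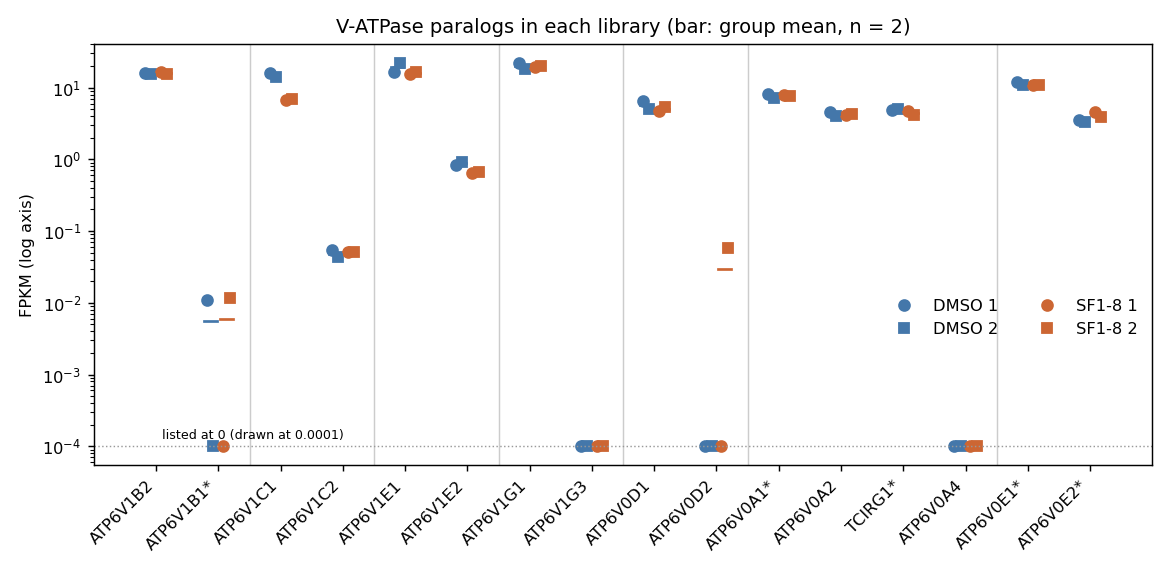
FPKM (log axis) of V-ATPase subunits with paralogs, 1 point per library (blue DMSO, orange SF1-8) and a short bar at each group mean (n = 2), with vertical lines between subunits B, C, E, G, d, a and e. ATP6V1C2 lay between 0.0430 and 0.0539 FPKM, far below ATP6V1C1 in every library, and values listed at 0 are drawn on the dotted line. Asterisks mark entries that name further genes.

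Of 16 other V-ATPase subunits and accessory subunits, 12 passed the filter. Of these, edgeR's quasi-likelihood test called 0 at the adjusted threshold of 0.05, against 0.0420% of all genes tested. At an unadjusted p under 0.05 it was 1 of 12, ATP6V0E2, against 4.33% of all genes tested. DESeq2 called 0, against 0.652% of the genes it tested, and limma called 0. With shares this small, 0 calls here or in the lists below are not read as a result about the genes. The median log2 fold change of the 12 was 0.0047, from -0.40 for ATP6V1E2 to 0.35 for ATP6V0E2. Both SF1-8 values lay below both DMSO values for 4 of the 12, against 20.0% of all genes tested, and above them for 1, against 14.2%. The entries of 6 of the 12 name further genes, those of ATP6V0A1, TCIRG1, ATP6V0E1 and ATP6V0E2 only microRNA or clone-named genes.

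ATP6V0E2, one of the small e subunits of V0, stood at 3.57 and 3.28 FPKM with DMSO and at 4.62 and 3.94 FPKM with SF1-8. Both SF1-8 libraries were higher, with a log2 fold change of 0.35 (SE 0.12) and an edgeR adjusted p of 0.970. Its relative ATP6V0E1 stood at 12.1 and 10.8 FPKM with DMSO and 10.7 and 10.8 FPKM with SF1-8.

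The large a subunits anchor the stalks of V1 in the membrane and steer the pump to different organelles. With DMSO, ATP6V0A1 was the highest of them (8.07 and 7.22 FPKM), TCIRG1 came next (4.92 and 5.03 FPKM) and ATP6V0A2 was the lowest of these (4.59 and 3.98 FPKM), without overlap between these genes. With SF1-8 they stood at 7.84 and 7.76, at 4.75 and 4.18, and at 4.13 and 4.29 FPKM, in which TCIRG1 and ATP6V0A2 overlapped. Their log2 fold changes were 0.058 (95% interval -0.13 to 0.25), -0.13 (-0.41 to 0.15) and 0.0037 (-0.21 to 0.22).

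ATP6V0B, a second proton-carrying ring subunit, was the highest V0 gene with an entry of its own, at 27.5 and 30.1 FPKM with DMSO and 29.4 and 29.5 FPKM with SF1-8. ATP6AP1, an accessory subunit that helps build V0, stood between 15.7 and 17.4 FPKM. ATP6AP2, the other accessory subunit, varied within each group, at 3.80 and 1.89 FPKM with DMSO and 3.92 and 2.42 FPKM with SF1-8. The entry that holds RNASEK, a small V0 subunit, also names C17orf49 and their readthrough gene, and it lay between 6.24 and 8.16 FPKM. The log2 fold changes of these 4 entries were 0.057, 0.0058, 0.20 and -0.15, with intervals that all included 0.

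**Figure D4:**
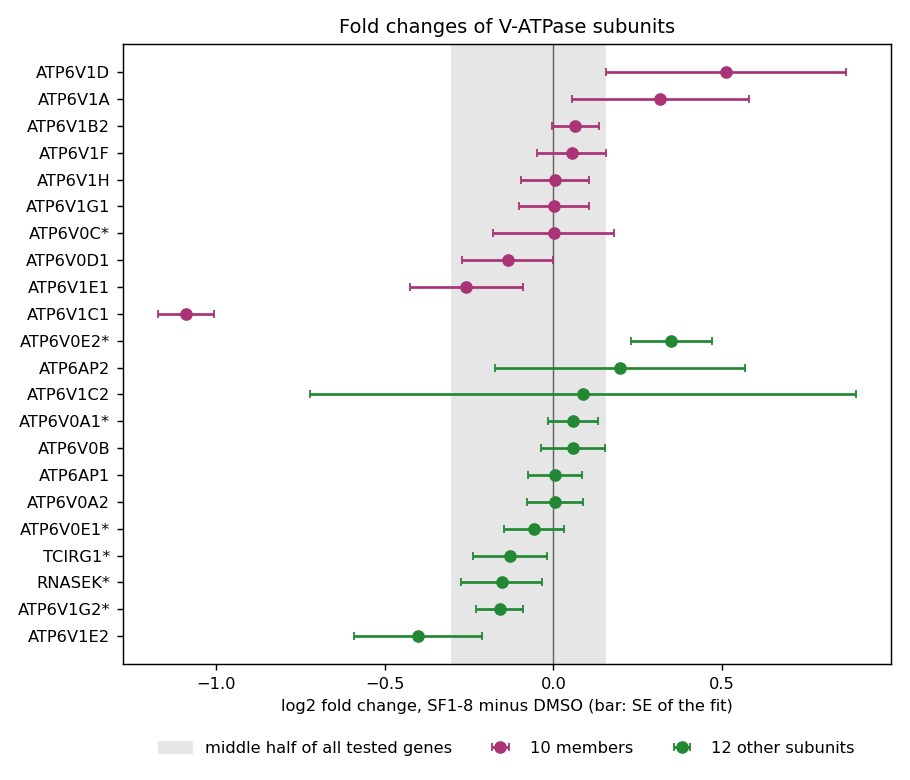
Log2 fold change of SF1-8 over DMSO with the SE of the fit for the 10 members (purple) and the 12 other subunits that passed the filter (green). The grey band runs from the 25th to the 75th percentile of all genes tested (-0.30 to 0.15), and ATP6V1C1, on which the set was selected, is at -1.09 while the next lowest subunit, ATP6V1E2, is at -0.40. Asterisks mark entries that name further genes.

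A list of 13 genes covered assembly and regulation of the pump. At the adjusted threshold, edgeR's quasi-likelihood test called 0 of 13, against 0.0420% of all genes tested. At an unadjusted p under 0.05 it was 0 of 13, against 4.33%. DESeq2 called 0, against 0.652% of the genes it tested, and limma called 0. The list includes TBC1D24, which is counted through the entry it shares with ATP6V0C. CCDC115, an assembly factor of the pump, was the only gene with both SF1-8 values higher, 1 of 13 against 14.2% of all genes tested. It stood at 6.21 and 6.07 FPKM with DMSO and 6.66 and 6.28 FPKM with SF1-8, with a log2 fold change of 0.10 (SE 0.098). MEAK7, a relative of proteins that separate V1 from V0, was the only one with both lower, 1 of 13 against 20.0%. It stood at 1.86 and 1.85 FPKM with DMSO and at 0.857 and 1.76 FPKM with SF1-8. Its log2 fold change of -0.48 (SE 0.338, edgeR adjusted p = 0.970) thus came from SF1-8 1.

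For the organelles that the pump acidifies, 41 genes of lysosomal enzymes and membrane proteins were tested. At the adjusted threshold, edgeR's quasi-likelihood test called 0 of 41, against 0.0420% of all genes tested. At an unadjusted p under 0.05 it was 1 of 41 (NPC2, named after its values were seen), against 4.33%. DESeq2 called 0, against 0.652% of the genes it tested, and limma called 0. The median log2 fold change was 0.044, from -0.32 to 0.53. Both SF1-8 values lay above both DMSO values for 6 of 41, against 14.2% of all genes tested, and below them for 5, against 20.0%. Of those higher, SCARB2, the receptor that brings glucocerebrosidase to lysosomes, rose most. It stood at 1.49 and 2.96 FPKM with DMSO and 3.08 and 3.28 FPKM with SF1-8. Its log2 fold change was 0.53 (SE 0.339), and DMSO 1 stood well below the other libraries. Of those lower, NAGLU, a heparan sulfate hydrolase in an entry shared with COASY, fell most. It stood at 12.6 and 12.0 FPKM with DMSO and 11.6 and 10.1 FPKM with SF1-8. NPC2, which takes part in the export of cholesterol from lysosomes, stood at 5.79 and 6.49 FPKM with DMSO and 8.29 and 7.34 FPKM with SF1-8 (edgeR adjusted p = 0.970).

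Of 19 genes of lysosomal mTORC1 signalling and of the TFEB family, 18 were tested. At the adjusted threshold, edgeR's quasi-likelihood test called 0 of 18, against 0.0420% of all genes tested. At an unadjusted p under 0.05 it was 0 of 18, against 4.33%. DESeq2 called 0, against 0.652% of the genes it tested, and limma called 0. Both SF1-8 values lay above both DMSO values for 2 of 18, against 14.2% of all genes tested, and below them for 3, against 20.0%. Among these genes without overlap, RRAGA, a GTPase that docks mTORC1 on lysosomes, stood highest by fold change. Its values were 15.3 and 15.0 FPKM with DMSO and 15.9 and 15.5 FPKM with SF1-8. LAMTOR5, part of the scaffold that joins these GTPases to the pump, stood lowest, at 12.4 and 14.3 FPKM with DMSO and 11.7 and 12.2 FPKM with SF1-8. TFEB itself was low, between 0.263 and 0.463 FPKM, while its relatives TFE3 and MITF lay between 5.08 and 6.36 FPKM and between 4.66 and 5.04 FPKM. All of them overlapped between the groups, with log2 fold changes of 0.22 (SE 0.368), 0.039 (SE 0.154) and -0.011 (SE 0.086).

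**Figure D5:**
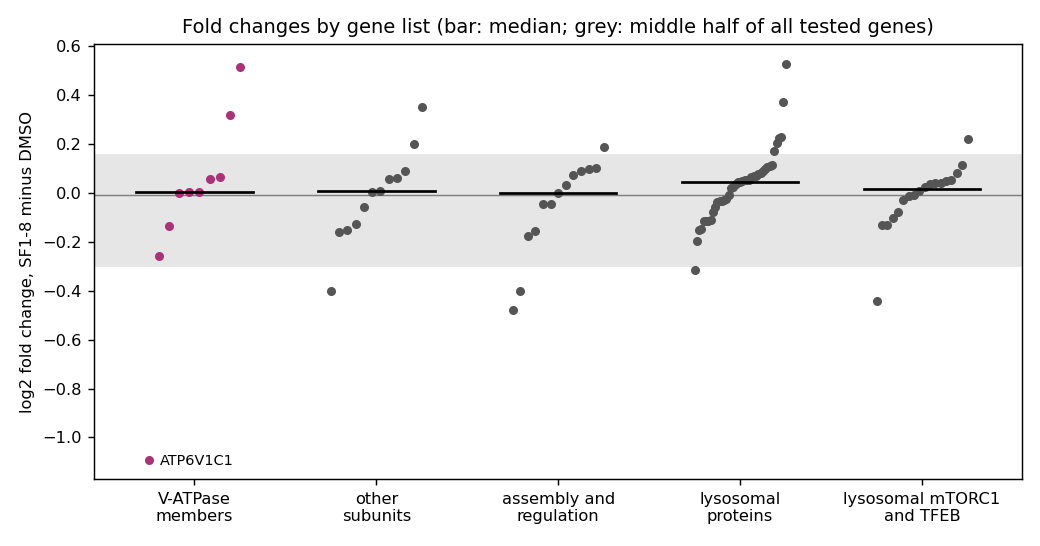
Log2 fold change of SF1-8 over DMSO for each tested gene of the V-ATPase members and 4 further lists, with a bar at each list's median and a grey band from the 25th to the 75th percentile of all genes tested. ATP6V1C1 is the lowest point at -1.09, and the medians of the lists lie between 0.00026 and 0.044.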

How the data were processed

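RNA was rRNA-depleted and sequenced from 2 DMSO and 2 SF1-8 samples, grouped by their labels. The authors deposited 1 table with a count and an FPKM value per entry and library. The deposited counts were taken as estimated counts, since a value of 1 is not 1 read, and the deposited FPKM values hold 0.0001 in place of 0. The submitters' processing notes name hg38, HISAT2, Bowtie2, StringTie, cutadapt and FastQC, without versions. Entries without a gene name (2095 of 64873, 0.37% of counts) were left out, and 2088 entries name several genes.

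Counts were normalized by TMM, filtered by filterByExpr and tested by edgeR 4.0.16 (quasi-likelihood, Benjamini-Hochberg over 26167 entries), after the script was tested on simulated data. Alternatives were DESeq2 1.42.0, limma 3.58.1 on log2(FPKM + 1) or log2(FPKM + 0.1), other scalings and filters, a replicate block and leaving out each library. Intervals used the moderated degrees of freedom of that fit. An exact permutation test of 2 against 2 libraries cannot go below p = 0.333 (two-sided) and was not used. No separate counting error was computed. The edgeR model treats counts as single reads, which these were not, and moderates the spread of 2 libraries a group over all genes. Its SE, intervals and p-values rest on both.

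The members and gene lists were chosen with earlier results of these data known. Named were the members, the other subunits that passed the filter, the extreme non-overlapping gene of each list in either direction, TFEB, TFE3 and MITF, and genes that share an entry with a member. Outside this rule, the 4 subunits that failed the filter, NPC2, the markers and genes sharing other entries were named after their values were seen. Protein identity between paralogs was planned and not run. Isoforms were not analysed here.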

Additional observations from a re-analysis of the deposited data

How the results depend on the processing

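The quasi-likelihood test called 11 genes, against 164 with DESeq2, 31 without a filter on low counts, 1 with limma on log2(FPKM + 1), 0 with limma at a pseudocount of 0.1 and 0 with limma without a filter. Leaving out 1 library gave from 0 (without DMSO 1) to 30 (without SF1-8 1), with 21 without DMSO 2 and 28 without SF1-8 2, where the lone library of a group was assumed to vary like the other group. With the replicate block it was 0. Same-numbered libraries did not deviate together (r = 0.016 over 26167 genes), so the numbers were not taken as pairs. The cause of these shifts was not tested.

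The log2 fold change of ATP6V1C1 was -1.09 with the replicate block and -1.02 in limma at a pseudocount of 1, with or without a filter, where the pseudocount draws values toward 0. Over all 14 alternatives it ran from -1.14 to -1.02, and ATP6V1C1 was the lowest member in each. The median over the members stayed between -0.041 and 0.033. No other subunit and no gene of the 3 pathway lists was called in any of the 14. Of 126 values for the other 9 members, 7 moved by more than 1 SD of the libraries. The rank of ATP6V1C1 by DMSO level was 6 both as FPKM and rescaled to TPM, and TCACGTGA was found in 2 promoters also in the 200 bases before the start alone. With 2 libraries a group, small differences of the low subunits cannot be seen.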

Other observations

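The table holds further small entries, with no annotated transcript, that carry a member's name and entered no comparison. One of 211 bases lies downstream of ATP6V1C1 and stood at 1.45 and 0.05 FPKM with DMSO and at 0.118 and 0 FPKM with SF1-8, from counts of 18, 1, 3 and 0. One of 261 bases downstream of ATP6V1G1 stood between 0.414 and 1.99 FPKM. One within ATP6V1B2 stood between 0.789 and 1.36 FPKM, and one on the strand opposite ATP6V1E1 between 0.776 and 1.07 FPKM. Each was far below the main entry of its gene.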
